A study of Mus musculus with 6 samples.

Results

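The 10 genes described here encode subunits of the transcription factor AP-1 and related immediate early gene products. They were Fos, Fosb, Fosl1, Fosl2, Jun, Junb, Jund, Egr1, Myc and Ier3, matched by symbol to 10 of the 54886 genes listed. The RNA came from GC-2spd, a cell line derived from spermatocytes of BALB/c mice. The PM2.5 group was exposed to 100 μg/mL fine particulate matter (PM2.5) for 48 h, and the control group (0 μg/mL) was kept in normal culture medium. In its account of the proliferation assay, the paper adds PBS to the control medium. Each group had 3 libraries, and the labels do not say whether these came from separate cultures, so the p-values measure only the spread between libraries. The values were FPKM, fragments scaled to the length of the gene and to a factor for each library. The reads recovered from FPKM and gene length came to between 16209350 and 18003198 a library.

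AP-1 is a dimer of basic leucine zipper proteins. FOS family proteins (FOS, FOSB, FOSL1, FOSL2) pair with JUN family proteins (JUN, JUNB, JUND), while JUN proteins can also pair with each other. Growth factor and stress signals reach these genes through MAP kinases, serum response factor and its partners, and CREB. Immediate early genes are switched on within minutes without new protein synthesis and usually fall back within hours, so a measurement at 48 h is a late one for this gene class.

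The libraries did not vary alike, and this bears on every gene below. Control replicate 2 correlated with control replicates 1 and 3 at r = 0.742 and 0.745 across 11884 genes on the log2(FPKM + 1) scale, against 0.992 between those replicates. Mitochondrially encoded genes took 14.5% of its reads, while the other 5 libraries had between 1.65% and 1.95%. PM2.5 replicate 3 correlated with PM2.5 replicates 1 and 2 at r = 0.950 and 0.958, against 0.991 between those replicates. These correlations are across genes, which are not independent replicates. Among the 10 members, control replicate 2 was the highest control library for 9, Fosl2 being the exception, and PM2.5 replicate 3 was the lowest PM2.5 library for all 10. Of the 11884 genes tested, the same held for 45.9% and 43.1%. The fits of the members and of the pathway genes named are therefore given with and without control replicate 2.

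**Figure D1:**
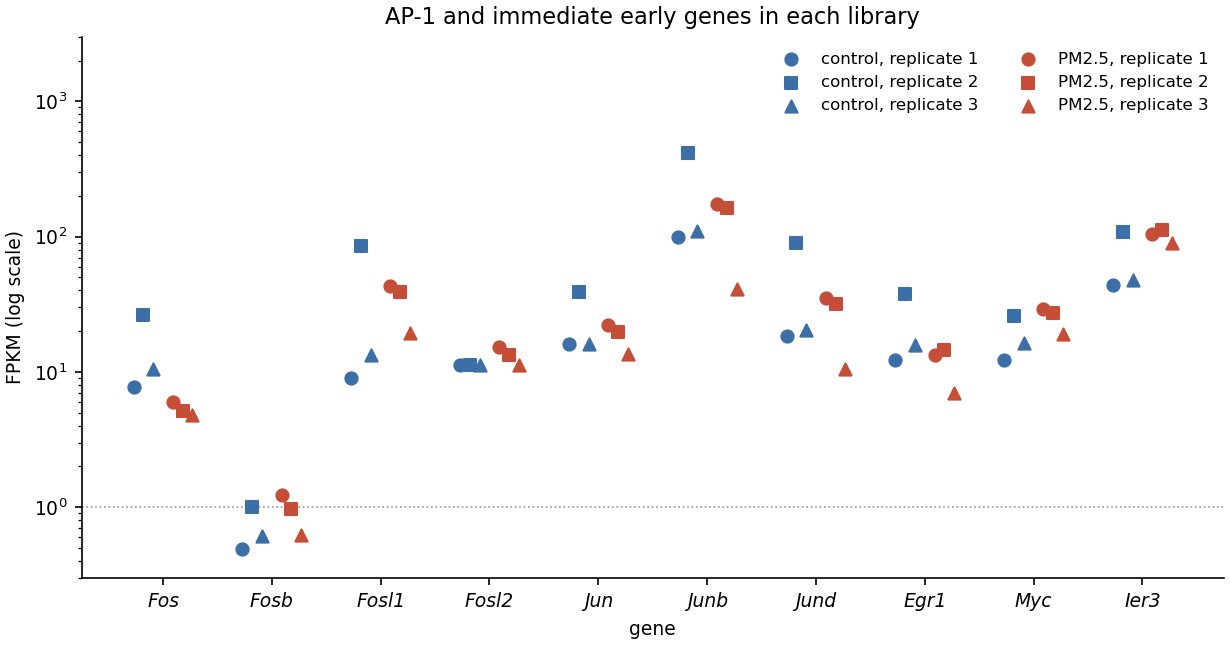
FPKM (log scale) of the 10 genes in each of the 6 libraries, with colour for the group and symbol for the replicate; the dotted line marks a level of 1 FPKM. Control replicate 2 (blue squares) stood above the other control libraries for every gene but Fosl2, for example 414.5 FPKM for Junb against 99.7 and 110.8.

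With all 6 libraries, 0 of the 9 members tested changed at an adjusted p under 0.05 in limma, while 11 of 11884 genes did (0.0926%). Fosb was not tested, since its mean was under 1 FPKM. Fos alone among the members had an unadjusted p under 0.05, a level that 451 genes reached (3.8%), while limma voom on recovered reads called 0 of 11740 genes and so 0 members, with 423 genes and 1 member at that unadjusted level. The median log2 fold change of the 9 members was −0.23, and that of all genes tested was 0.02. Without control replicate 2, limma called 1 of 9 members, Ier3, among 119 of 11597 genes (1.03%). At an unadjusted p under 0.05 there were 4 members (Fos, Fosl1, Myc and Ier3) among 1855 genes (16.0%). The median of the 9 members was then 0.21, and that of all genes −0.01.

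The groups overlapped for 9 of the 10 members when all libraries were used, and Fos was lower in every PM2.5 library than in any control library. Of all genes tested, 8.35% were higher in every PM2.5 library and 6.85% lower. Without control replicate 2, the PM2.5 libraries lay wholly above the controls for Fosl1, Myc and Ier3 and wholly below for Fos. Of all genes tested in that setting, 17.8% lay above and 19.8% below. Fosb, which was not tested, also lay above, by a narrow step. It was at 0.620 FPKM (70 reads) in PM2.5 replicate 3 and 0.613 FPKM (69 reads) in control replicate 3.

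**Figure D2:**
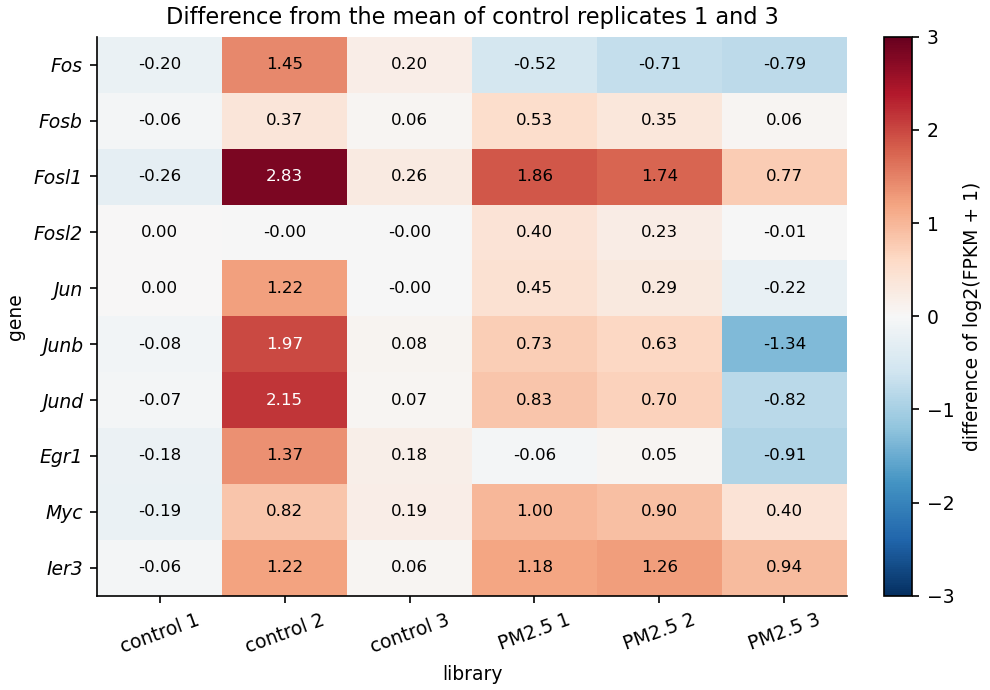
Difference of log2(FPKM + 1) of each gene (vertical axis) in each library (horizontal axis) from the mean of control replicates 1 and 3; red is higher and blue lower. Control replicate 2 was near 0 for Fosl2 and reached 2.83 for Fosl1, and PM2.5 replicate 3 was below PM2.5 replicates 1 and 2 in every row.

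Among the FOS family, Fos (ENSMUSG00000021250, chr12:85473890-85477273, plus strand), the founding member and a classical marker of recent stimulation, was at 7.70, 26.4 and 10.5 FPKM in the control group and, with PM2.5, at 6.0, 5.10 and 4.78 FPKM. It rested on 203 to 806 reads a library. All PM2.5 libraries were lower than all control libraries, and the highest control was replicate 2. The log2 fold change was −1.16 ± 0.44 (SE; adjusted p = 0.875, limma) with all libraries and −0.68 ± 0.16 (adjusted p = 0.161) without control replicate 2. The direction was thus the same in both fits, and neither passed the threshold.

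Fosl1 (ENSMUSG00000024912, chr19:5447547-5455946, plus strand) encodes FRA-1, which lacks the strong transactivation domain of FOS. The control libraries held 9.03, 84.6 and 13.4 FPKM and the exposed libraries 42.8, 39.2 and 19.5 FPKM. Against control replicates 1 and 3, the mean of the PM2.5 group was 3.01 times as high and control replicate 2 was 7.53 times as high. The log2 fold change was 0.51 ± 0.84 with all libraries (adjusted p = 0.880) and 1.46 ± 0.38 without control replicate 2 (adjusted p = 0.183, limma). Without control replicate 1 it was −0.088, so its direction turned there. Exons of Ccdc85b on the opposite strand cover 57.2% of the exon bases of Fosl1. The library kit named in the labels does not mark strand, so reads from the shared stretch of these genes cannot be told apart. Ccdc85b itself was at 34.9, 256.2 and 42.4 FPKM in the controls and at 88.9, 77.1 and 19.8 FPKM in the PM2.5 libraries. Its part in the Fosl1 values was not tested.

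Fosl2 (ENSMUSG00000029135, chr5:32135801-32157842, plus strand), which encodes FRA-2, was the steadiest member. Its control libraries were at 11.2 FPKM each, with control replicate 2 in place among them, and the PM2.5 libraries were at 15.1, 13.3 and 11.2 FPKM. The log2 fold change was 0.21 in both fits (adjusted p = 0.525 without control replicate 2). Fosb (ENSMUSG00000003545, chr7:19302696-19310051, minus strand), known for its stable splice form in neurons, was the least abundant member, at 0.70 ± 0.27 FPKM for the controls and 0.94 ± 0.31 FPKM with PM2.5 (SD, n = 3 each), with 57 to 138 reads a library.

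Summed over the 4 FOS family genes, the level was 28.5, 123.2 and 35.8 FPKM in the controls and 65.1, 58.5 and 36.1 FPKM after PM2.5 exposure. Fosl1 made up 31.7%, 68.6% and 37.5% of that sum in the controls, and 65.6%, 66.9% and 54.1% with PM2.5. The share of Fos was 27.0%, 21.4% and 29.5% in the controls and 9.21%, 8.72% and 13.2% in the PM2.5 libraries, so its shares did not overlap between the groups, control replicate 2 included. These shares are a description, were not tested and have no like share over all genes beside them. They rest on the Fosl1 values, in which reads from the stretch shared with Ccdc85b cannot be told apart.

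Among the JUN family, Junb (ENSMUSG00000052837, chr8:84974484-84978718, minus strand), a JUN relative that can restrain JUN activity, was the most abundant member. It was at 99.7, 414.5 and 110.8 FPKM in the controls and at 174.7, 162.9 and 41.0 FPKM in the PM2.5 libraries, on 1707 to 12373 reads. PM2.5 replicates 1 and 2 were above control replicates 1 and 3, and PM2.5 replicate 3 was below all other libraries. The log2 fold change was −0.65 with all libraries, 0.01 ± 0.67 without control replicate 2 (adjusted p = 0.997, limma) and 0.02 without PM2.5 replicate 3, so its direction turned with single libraries.

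Jund (ENSMUSG00000071076, chr8:70698949-70700616, plus strand), often present in resting cells, showed the same order of libraries, at 18.4, 88.9 and 20.2 FPKM in the controls and 35.1, 32.0 and 10.5 FPKM in the PM2.5 libraries. Its log2 fold change was −0.48 with all libraries, 0.24 ± 0.53 without control replicate 2 (adjusted p = 0.849) and 0.05 without PM2.5 replicate 3. Exons of the antisense gene Gm11175 cover 52.6% of its exon bases. Gm11175 was listed at 0 in every library, and the part of this overlap in the Jund values was not tested. Jun (ENSMUSG00000052684, chr4:95049034-95052222, minus strand), the main target of JNK among these proteins, was at 16.0, 38.7 and 16.0 FPKM in the controls and at 22.2, 19.9 and 13.6 FPKM after PM2.5 exposure. Its log2 fold change was −0.23 with all libraries and 0.17 ± 0.22 without control replicate 2 (adjusted p = 0.727).

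Junb held 74.3%, 76.5% and 75.4% of the summed JUN family FPKM in the controls and 75.3%, 75.9% and 63.0% in the PM2.5 libraries. In that sum, PM2.5 replicate 3 had the largest share of Jun, 20.8%, against 7.14% to 12.0% elsewhere. The JUN family was thus dominated by Junb in every library, while its summed level ranged from 65.1 FPKM in PM2.5 replicate 3 to 542.1 FPKM in control replicate 2.

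Of the other immediate early members, Ier3 (ENSMUSG00000003541, chr17:35821684-35822923, plus strand), a stress-induced gene linked to cell survival, was the one that passed the test without control replicate 2. It was at 43.8, 108.0 and 47.9 FPKM in the controls and, after PM2.5 exposure, at 105.1, 110.9 and 89.0 FPKM, on 920 to 2226 reads. Every PM2.5 library was above control replicates 1 and 3, and control replicate 2 lay among the PM2.5 libraries. The log2 fold change was 1.13 ± 0.13 without control replicate 2 (adjusted p = 0.0384, limma), against 0.72 ± 0.39 with all libraries (adjusted p = 0.875). Over 18 alternatives the adjusted p ranged from 0.000347 to 0.988. A fit of replicates 1 and 3 alone with the replicate number as a block, chosen after seeing the data, gave 1.06 ± 0.24 (adjusted p = 0.0556), so the call was lost there.

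Myc (ENSMUSG00000022346, chr15:61985391-61990374, plus strand), which encodes a growth-promoting E box factor, was at 12.2, 25.7 and 16.2 FPKM in the controls and at 29.1, 27.2 and 18.9 FPKM in the PM2.5 libraries. The log2 fold change was 0.49 with all libraries and 0.77 ± 0.23 without control replicate 2 (adjusted p = 0.222). Egr1 (ENSMUSG00000038418, chr18:34859823-34864984, plus strand), a zinc finger factor induced through serum response factor, was at 12.2, 37.6 and 15.9 FPKM in the controls and 13.3, 14.4 and 6.96 FPKM in the PM2.5 libraries. Its log2 fold change was −0.76 with all libraries and −0.31 ± 0.33 without control replicate 2 (adjusted p = 0.680). The groups overlapped for both genes with all libraries, and without control replicate 2 they still overlapped for Egr1.

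**Figure D3:**
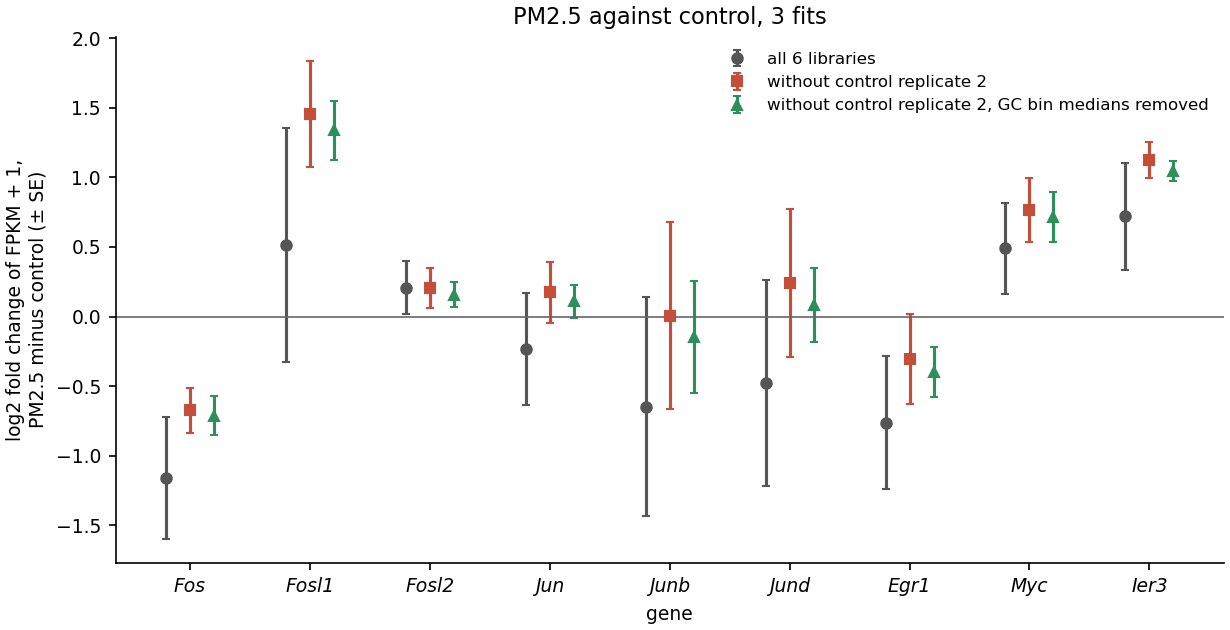
Log2 fold change of FPKM + 1 (PM2.5 minus control, points, with SE as bars) of the 9 genes tested, in the fit of all 6 libraries, the fit without control replicate 2, and the latter after medians of GC bins were removed. Ier3 stood at 0.72, 1.13 and 1.04 in these fits, while Jun and Jund lay below 0 with all libraries and above 0 in the others.

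By level in control replicates 1 and 3, the order was Junb (105.3 ± 7.86 FPKM, SD, n = 2), Ier3 (45.9 ± 2.88), Jund (19.3 ± 1.32), Jun (16.0 ± 0.04), Myc (14.2 ± 2.84), Egr1 (14.0 ± 2.64), Fosl2 (11.2 ± 0.03), Fosl1 (11.2 ± 3.11), Fos (9.12 ± 2.01) and Fosb (0.55 ± 0.09). The neighbours from Jun to Egr1, and from Fosl2 to Fos, differed by less than the larger SD of each pair. In the PM2.5 group the order was Junb (126.2 ± 74.0 FPKM, SD, n = 3), Ier3 (101.7 ± 11.3), Fosl1 (33.8 ± 12.5), Jund (25.9 ± 13.4), Myc (25.1 ± 5.43), Jun (18.6 ± 4.48), Fosl2 (13.2 ± 1.99), Egr1 (11.6 ± 4.04), Fos (5.29 ± 0.63) and Fosb (0.94 ± 0.31). There the steps from Ier3 to Fosl1, Myc to Jun, Jun to Fosl2, Egr1 to Fos and Fos to Fosb exceeded the larger SD of the pair, and the others did not. With control replicate 2 the control means were higher and far more spread, for example 208.4 ± 178.6 FPKM for Junb and 35.7 ± 42.4 FPKM for Fosl1 (SD, n = 3).

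Leaving out control replicate 2 and PM2.5 replicate 3 together was tried after their values in these genes had been seen, so its calls describe the 4 remaining libraries and carry no weight of their own. In that fit 8 of 9 members passed the threshold, all but Egr1, with Fos lower and the other 7 higher. Of all genes tested there, 5594 of 11624 passed as well (48.1%).

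Structural features that the choice of genes did not use were held by some members only. In the transcript with the longest coding part, Jun, Junb and Jund have no intron, as do 2.4% of the 10374 coding genes tested. The other members have between 1 and 3 introns there, against a median of 8. The transcripts of Jund and Junb had a GC content of 67.1% and 62.6%, those of the other members lay between 51.9% and 58.5%, and 4.95% of the coding genes tested reached 60%, with a median of 50.4%. The heptamer TATTTAT, a core of AU-rich elements that mark short-lived mRNA, was found 4 times in the 3′ untranslated region of Ier3, 3 times in that of Fosl2 and 2 times in that of Fos. It was found 1 time each in Fosb, Fosl1, Jun and Jund and was not found in Junb, Egr1 or Myc, while 27.7% of coding genes had it at least 1 time.

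The differences of control replicate 2 and of all PM2.5 libraries from control replicates 1 and 3 ran with transcript GC content. Among the 513 coding genes with a GC content of 60% or more, the median difference from control replicates 1 and 3 was 1.07 in control replicate 2, 0.45 and 0.37 in PM2.5 replicates 1 and 2, and −0.38 in PM2.5 replicate 3 (log2(FPKM + 1)). Among the 2289 genes under 45%, these medians were −0.61, −0.30, −0.23 and 0.08. For Junb the differences in the same libraries were 1.97, 0.73, 0.63 and −1.34, and for Jund 2.15, 0.83, 0.70 and −0.82, so both genes had the signs of the GC-rich genes in all 4 libraries. Jun, with a GC content of 55.5%, had the same signs (1.22, 0.45, 0.29 and −0.22), so these were not particular to the 2 members above 60%. The cause of the relation with GC content was not tested.

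**Figure D4:**
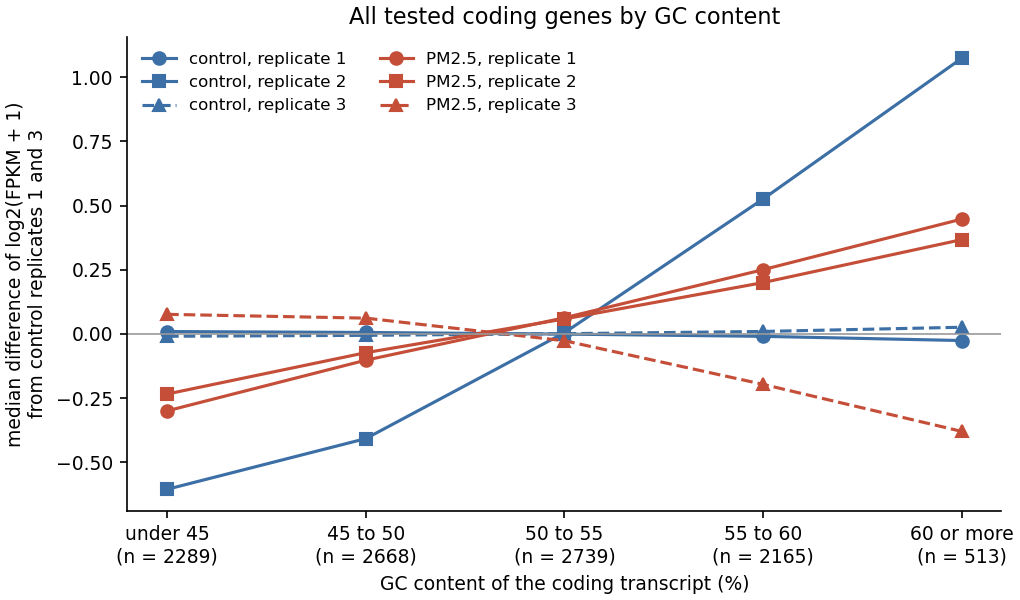
Median difference of log2(FPKM + 1) from the mean of control replicates 1 and 3 (vertical axis) over all tested coding genes, in 5 classes of transcript GC content (horizontal axis), 1 line a library. Control replicate 2 runs from −0.61 to 1.07, PM2.5 replicates 1 and 2 rise with GC content, and PM2.5 replicate 3 runs the other way, from 0.08 to −0.38.

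After the medians of 20 equal GC bins were removed from each library, a step chosen after seeing the data, 0 of 9 members passed with all 6 libraries, among 8 of 11735 genes (0.0682%). In that limma fit 1 member, Fos, had an unadjusted p under 0.05, a level that 667 of the 11735 genes reached. Without control replicate 2, 3 of 9 members passed after this step, among 873 of 11492 genes (7.6%). These were Ier3 (1.04 ± 0.07, adjusted p = 0.00397), Fosl1 (1.34 ± 0.21, adjusted p = 0.0296) and Fos (−0.71 ± 0.14, adjusted p = 0.0469). The values of single libraries are from the step taken over all 6 libraries. There Ier3 was 1.01, 1.12 and 1.03 above control replicates 1 and 3 in the 3 PM2.5 libraries. In the same values Junb was still 0.27 and 0.25 above those controls in PM2.5 replicates 1 and 2. It was −0.97 from them in PM2.5 replicate 3.

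The genes whose pattern over the 6 libraries was most like that of a member were sought for the 3 members with the largest SD, by the root mean square difference of centred log2(FPKM + 1). For Junb they were H1fx (0.103) and Nrtn (0.11), with a GC content of 71.3% and 72.8%. For Jund they were Tpgs1 (0.0874) and Ubald2 (0.0993), with 65.3% and 58.9%. For Fosl1 they were Lgals3 (0.188) and 2410006H16Rik (0.21), with 55% and 53.7%. Lgals3, for example, was at 25.1, 185.6 and 27.3 FPKM in the controls and at 81.5, 75.9 and 51.0 FPKM in the PM2.5 libraries. Junb and Jund were each other's nearest member, at 0.178.

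The promoters of Junb and Ier3 are shown since these were the most abundant members and since Ier3 was the member called. RefSeq start sites (GRCm38.p6) gave a window of 250 bases before to 50 after the start for the 7 members searched. Fosl1, Egr1 and Myc were not searched. Both strands were searched for TGANTCA (AP-1), TGACGTCA (cAMP response element), the CArG box of serum response factor, TNGCGTG (core of the xenobiotic response element), GCGNGGGCG (EGR) and CACGTG (E box). None of the 6 motifs was found in Jun, Junb, Jund, Fos or Ier3, while Fosl2 and Fosb each held 1 match to GCGNGGGCG. Of 32851 promoter windows, 7.81%, 1.79%, 1.63%, 5.07%, 5.55% and 7.15% held these motifs, in the order given. The window of Jund lies 1210 bases before the start in the annotation used for the gene positions and is not shown. The 250 bases before the start are printed for Junb (chr8:84978749-84978998, minus strand) and Ier3 (chr17:35821463-35821712, plus strand), all in lower case since there was no match to mark.
Junb: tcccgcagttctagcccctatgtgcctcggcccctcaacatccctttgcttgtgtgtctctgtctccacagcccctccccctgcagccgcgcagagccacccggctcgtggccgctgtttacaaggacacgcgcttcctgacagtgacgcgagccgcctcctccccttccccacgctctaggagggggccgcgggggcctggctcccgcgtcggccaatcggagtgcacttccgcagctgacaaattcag
Ier3: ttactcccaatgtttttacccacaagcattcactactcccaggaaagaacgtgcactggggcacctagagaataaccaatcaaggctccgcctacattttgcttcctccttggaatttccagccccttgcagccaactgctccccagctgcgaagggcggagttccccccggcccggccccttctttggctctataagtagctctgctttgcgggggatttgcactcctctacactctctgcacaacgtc
The Junb stretch had a GC content of 66.4% and the Ier3 stretch 54.4%. No match says only that these letters are not in this window.

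Of the other genes of the pathway, 0 of 109 tested passed in limma with all 6 libraries, with 6 at an unadjusted p under 0.05 (3 higher and 3 lower). Of the 11884 genes in that fit, 451 were at that level (3.8%), 228 higher and 223 lower. A log2 fold change above 0 was found for 6166 of them. Without control replicate 2, 0 of 109 passed and 29 were at that unadjusted level, 16 higher and 13 lower. Of all genes in that fit, 1855 of 11597 were at this level (16.0%), 965 higher and 890 lower, and 5572 had a log2 fold change above 0. The median log2 fold change of the 109 genes without control replicate 2 was 0.09, against −0.01 for all genes. The counts of the lists below are to be read against those of all genes in the same fit. The genes named next are those with the largest change in each list among genes whose groups did not overlap without control replicate 2, and their log2 fold changes are from that fit unless all 6 libraries are named.

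Of 9 other bZIP partners tested, 6 had a log2 fold change above 0 and 0 had an unadjusted p under 0.05 in limma, as with all 6 libraries (6 of 10 above 0). Atf4, the integrated stress response factor, was at 64.9, 630.2 and 67.0 FPKM in the controls and at 139.6, 135.6 and 71.5 FPKM in the PM2.5 libraries (0.74, adjusted p = 0.354). Atf3, a stress-induced JUN partner, had 0.24 and Atf7 −0.21. With all 6 libraries Atf4 had −0.34, Atf3 −0.081 and Atf7 −0.22, so the direction of Atf4 and Atf3 turned with control replicate 2. Among the 18 upstream kinases, 3 were at an unadjusted p under 0.05, all lower, a share near that of all genes, and 0 were with all 6 libraries. In this list Map2k1, the MEK1 kinase, had −0.51 (adjusted p = 0.148), Rps6ka3, the RSK2 kinase, −0.52 and Mapk7 (ERK5) 0.38, against −0.40, 0.017 and −0.047 with all 6 libraries. Among the 7 genes of serum response factor, its partners and CREB, 2 were at that level, both lower, and 0 with all 6 libraries. Creb1 had −0.29, Elk3 −0.25 and Mrtfb −0.05, against −0.094, −0.34 and 0.24 with all 6.

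Among the 16 phosphatases and feedback inhibitors, 3 were higher and 1 lower at an unadjusted p under 0.05, against 1 higher and 0 lower with all 6 libraries. Dusp4, a nuclear MAP kinase phosphatase, was at 6.29, 1.91 and 8.04 FPKM in the controls and at 20.8, 18.3 and 12.5 FPKM in the PM2.5 libraries, above every control library (1.13 ± 0.24, adjusted p = 0.126). Here control replicate 2 was the lowest library. Dusp5 had 0.42 and Dusp1, itself an immediate early gene, −0.42. Dusp4, Dusp5 and Dusp1 had 1.63, 0.19 and −0.20 with all 6 libraries.

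Of the 23 other immediate early genes tested, 18 had a log2 fold change above 0, with 2 higher and 3 lower at an unadjusted p under 0.05. With all 6 libraries 13 were above 0 and 10 below, with 1 higher and 2 lower at that level. Ptgs2, which encodes cyclooxygenase 2, was at 3.22, 3.80 and 2.85 FPKM in the controls and at 7.27, 7.61 and 10.5 FPKM in the PM2.5 libraries, with control replicate 2 close to its group. Its log2 fold change was 1.13 with all libraries (adjusted p = 0.327) and 1.22 ± 0.17 without control replicate 2 (adjusted p = 0.0625, limma), just outside the threshold. Plk2 had 0.89 ± 0.15 (adjusted p = 0.0831) and 0.52 with all 6 libraries. Ier2 had −0.87, and −1.55 with all 6, at 202.2, 865.0 and 212.0 FPKM in the controls and 126.2, 128.8 and 88.9 FPKM in the PM2.5 libraries, so every PM2.5 library was below every control library, as for Fos.

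Among the 10 AP-1 target genes tested, 3 were higher and 1 lower at an unadjusted p under 0.05, against 1 higher and 1 lower with all 6 libraries. Ccnd1 (cyclin D1) had 0.62 and Plau (urokinase) −0.49 ± 0.09 (adjusted p = 0.0958), and 1.11 and −0.49 with all 6. Plau was at 7.51, 7.46 and 7.26 FPKM in the controls and 4.94, 5.17 and 4.84 FPKM in the PM2.5 libraries. Of the 10 MYC partners and family members, 8 had a log2 fold change below 0, 2 of them at an unadjusted p under 0.05. With all 6 libraries 5 of 9 were below 0, with 0 at that level. The MYC antagonists Mxd1, Mxi1 and Mxd4 had −0.42, −0.30 and −0.44, and −0.33, −0.42 and −0.16 with all 6. Of 16 MYC target genes, 15 had a log2 fold change above 0, 8 of them at an unadjusted p under 0.05 beside 1 lower, with a median of 0.27. With all 6 libraries 14 of 16 were above 0 and 0 were at that level. Fbl, Srm and Npm1, which serve ribosome and polyamine synthesis, had 0.68, 0.56 and 0.51 (adjusted p = 0.128, 0.129 and 0.133). They had 0.27, 0.49 and −0.065 with all 6 libraries, so the direction of Npm1 turned. Npm1 was at 517.4 FPKM in control replicate 2, above all other libraries.

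**Figure D5:**
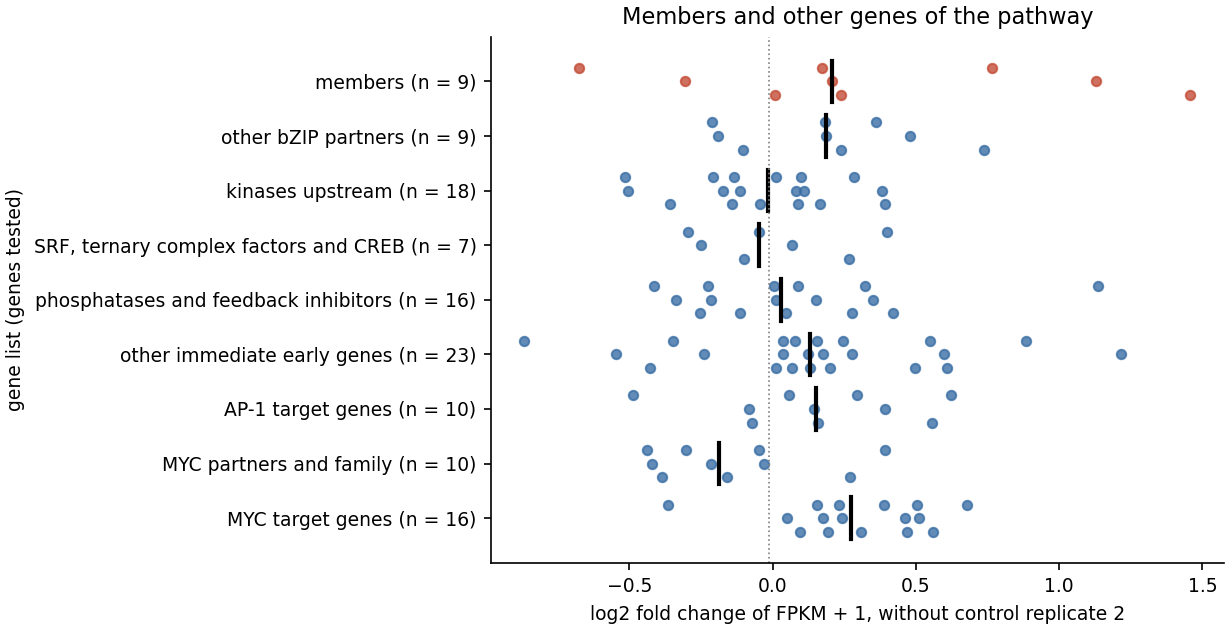
Log2 fold change of FPKM + 1 without control replicate 2 (horizontal axis) of each gene tested (points) in the members and 8 lists of pathway genes (vertical axis); black bars are medians and the dotted line is the median of all genes, −0.01. Medians ran from −0.19 for MYC partners and family to 0.27 for MYC target genes, and the members lay at 0.21.

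The labelled cell type was set against marker genes. Of 13 spermatocyte markers, 0 had a mean of 1 FPKM or more, and Dazl, Spo11, Piwil1, Pgk2 and Hormad1 were at 0 in every library. Their summed level was 0.48, 2.69 and 0.47 FPKM in the controls and 0.08, 0.39 and 0.61 FPKM in the PM2.5 libraries. Sycp3, the most abundant, reached 2.56 FPKM in control replicate 2. Peritubular or fibroblast markers summed to 913.0, 1441 and 934.5 FPKM in the controls and to 924.2, 917.5 and 713.9 FPKM in the PM2.5 libraries. Col1a1, the most abundant by its mean over the 6 libraries, was at 411.5, 451.9 and 425.1 FPKM and at 435.1, 437.4 and 193.1 FPKM. Vim was higher than Col1a1 in control replicate 2 (698.1 FPKM) and PM2.5 replicate 3 (343.1 FPKM), and 5 of 7 markers had a mean of 1 FPKM or more. These defining spermatocyte genes were thus near 0 in cells labelled as spermatocyte-derived.

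Of 8 Sertoli cell markers 1 had a mean of 1 FPKM or more, Gata4, which ranged from 11.1 to 22.3 FPKM, while Cldn11, Fshr and Dmrt1 were at 0 throughout. The summed level of that list lay between 12.1 FPKM in PM2.5 replicate 3 and 23.6 FPKM in PM2.5 replicate 1. Of 6 Leydig cell markers 1 did, Star, with summed levels of 1.74 to 2.59 FPKM and with Hsd3b1 and Lhcgr at 0. Of 5 immune markers Cd68 alone did. It was at 15.5 FPKM in control replicate 2, which was the whole sum there, and ranged from 0.75 to 1.80 FPKM elsewhere, where the sum was 1.13 to 2.5 FPKM, while Ptprc and Adgre1 were at 0 in every library. The spermatocyte, Leydig, fibroblast and immune sums were thus highest, and the Sertoli sum was not, in control replicate 2, the highest control library for 9 of the 10 members. Markers of the same list did not move alike there. Vim and Acta2 were above the other controls. Col1a2 (198.9 FPKM, against 202.0 and 200.7) and Pdgfrb (3.35 FPKM, against 3.37 and 3.77) were just below the lower of them. Lyz2, an immune marker, was at 0, and Amh, of the Sertoli list, was at 2.35 FPKM, above the other controls. The part of these cell types in the values of the members was not tested. In bulk RNA, fewer cells of a type and less RNA per cell cannot be told apart.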

How the data were processed

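Per the labels, total RNA of GC-2spd cells was sequenced as paired-end libraries, and the submitters' processing notes name HISAT2 2.0.5, featureCounts 1.5.0-p3 and the build mm9. The authors deposited FPKM per gene, without coordinates. FPKM times exon length of GENCODE M21 (GRCm38) gave whole reads (within 0.05) for 98.1% to 98.4% of values under 50 reads, so printed positions are those of GRCm38 and may differ from the build named. Fosl1 did not give whole reads, so its value in the voom alternative rests on rounded reads from a length that may differ from the one used for the deposited values. The recovered totals are the depth of each library. Across libraries, the deposited scaling followed median-of-ratios factors, which were 0.769 in control replicate 2 and 1.06 to 1.11 in the others.

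Genes with a mean of at least 1 FPKM were tested on log2(FPKM + 1) with limma 3.58.1 (trend and robust, R 4.3.3), 2-sided, with Benjamini-Hochberg adjustment over all genes tested and a threshold of 0.05. The pseudocount of 1 understates changes of low genes. The fit was checked on simulated data. DESeq2, which the authors used, was not run on the FPKM values, and voom was run on the recovered reads. Alternatives were other filters, a pseudocount of 0.1, other scalings, quantile normalization, voom, a replicate block, a fold threshold and each library left out. GC steps, the joint omission of 2 libraries and the block over replicates 1 and 3 were added after seeing the data. Named genes were all members, list genes called in either fit, and the 3 largest non-overlapping changes of each list without control replicate 2. Of these, 1 gene is not reported here. GC content of members and GC classes is that of the transcript with the longest coding part; the GC bins and the genes of like pattern used the longest coding transcript, or the longest where a gene has none. The members and lists were chosen with earlier results of these data known. Tables and figures were made with Python 3.11.15.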

Additional observations from a re-analysis of the deposited data

How the results depend on the processing

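Fos, Egr1, Fosl2, Myc and Ier3 kept their sign under all 18 alternatives, though Egr1 came to −0.0052 without control replicate 2 and PM2.5 replicate 3 together. The number of members called stayed at 0 under other filters, pseudocount, scalings, quantile normalization, voom, the fold threshold and the replicate block. With single libraries left out, it ranged from 0 to 1, the number of genes called from 0 to 119 (11 with all libraries), and the median log2 fold change of the members from −0.44 to 0.21 (−0.23 with all). The 119 came without control replicate 2, and each other omission gave 0. The number of genes called was 0 with no filter, with a mean of at least 5 FPKM and with voom on recovered reads. It was 6 with scaling to recovered totals (3 higher and 3 lower, against 4 and 7 as deposited), where the median of all genes moved from 0.02 to 0.13 and that of the members was −0.10. The GC step gave 8 (4 higher and 4 lower). The cause was not tested.

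Over the same omissions, Fosl1 ranged from −0.088 to 1.46, Jun from −0.44 to 0.17, Junb from −1.02 to 0.021 and Jund from −0.87 to 0.24. Without control replicate 2, Junb was at 0.0066. Without control replicate 2 and PM2.5 replicate 3 together, a choice made after seeing the data, 5594 genes and 8 members passed, the median of the members was 0.68, and Jun, Junb and Jund had 0.37, 0.68 and 0.77. With GC bin medians removed and control replicate 2 left out, also chosen afterwards, 873 genes and 3 members passed, and Jun, Junb and Jund had 0.11, −0.15 and 0.085.

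The labels do not say whether libraries of the same number share a culture or batch. The deviations of same-numbered libraries correlated at −0.28, 0.18 and 0.25, and not every library correlated best with its own number. Deviations were taken from the mean of each group, which control replicate 2 moves, so these correlations cannot settle whether libraries were paired. The replicate block called 0 genes and 0 members. The replicate block over replicates 1 and 3, chosen after seeing the data, called 136 genes and 0 members, with Jun, Junb and Jund at 0.11, −0.30 and 0.0075. Fosb, on 57 to 138 reads, was tested only with no filter.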
